A study of Drosophila melanogaster with 15 samples.

Results

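Small heat shock proteins and the cochaperone starvin (stv) were followed in whole adult male fruit flies with and without Dsup, a tardigrade protein that binds nucleosomes, before and after ionizing radiation. The set names 5 genes, Hsp23, Hsp26, Hsp27, stv and Hsp83, and a gene was taken up where the array annotation gave it a probe set with exactly 1 gene symbol. This held for 3 of the 5, out of 11982 genes measured in all. Hsp26 was read from probe set 1635044_at, Hsp27 from 1628117_at and stv from 1634364_s_at, each the only such probe set of its gene. Hsp23 and Hsp83 were not analysed here.

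Each of 15 Affymetrix expression arrays held RNA of the whole bodies of 25 males, 3 days old. The groups were untreated controls (n = 4), controls after 1000 Gy (n = 3), untreated Dsup-expressing flies of transgenic lines 1 to 4 (n = 4) and the same lines after 1000 Gy (n = 4). The promoter that drives Dsup, the genetic background of the controls and the time from irradiation to RNA isolation are in none of the labels, so genetic background and transgene cannot be told apart. In RNA of whole bodies, fewer cells of a type and less RNA per cell cannot be told apart either.

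Small heat shock proteins carry an alpha-crystallin domain and hold unfolding proteins in a soluble state without using ATP, from which the Hsp70 machinery refolds them. Their genes are among the classical targets of heat shock factor, Hsf, which trimerizes and binds heat shock elements when unfolded proteins accumulate. Starvin carries a BAG domain that releases nucleotide from Hsc70, and in fly muscle it directs damaged filamin to chaperone-assisted selective autophagy.

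Levels are log2 probe set levels after quantile normalization over all 15 arrays. A change was called when the limma adjusted p, taken over 18769 probe sets, was below 0.05. The following features of the table touch every value. The deposited array means differed between groups, at 4.63, 4.87, 4.04 and 4.49 in untreated controls, irradiated controls, untreated Dsup lines and irradiated Dsup lines, and a shift of a single probe set shared by all arrays of a group cannot be told apart from a group difference. The 3 irradiated control arrays also shared identical deposited values at 26.9% of probe sets, against at most 0.0959% across all arrays of any other group. The male label was checked on 8 yolk protein and chorion genes, which lay between the 14.4th and 52.1st percentile of probe sets in untreated controls, and on 5 accessory gland genes, which lay between the 97.0th and 99.3rd.

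Hsp26, a cytosolic small heat shock protein, stood at 8.05, 7.77, 8.09 and 7.86 in untreated control arrays 1 to 4. In irradiated control arrays 1 to 3 it stood at 10.1, 9.87 and 10.4. Untreated Dsup lines 1 to 4 gave 7.89, 7.53, 8.48 and 7.86, and the same lines after radiation gave 9.38, 7.67, 8.26 and 8.25. All irradiated controls were above every other array. Irradiated Dsup line 1 was the next highest, while lines 2 to 4 after radiation lay inside the range of the untreated Dsup lines.

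Hsp27, a small heat shock protein that also enters the nucleus, stood at 6.74, 6.60, 6.86 and 6.43 in untreated controls. The irradiated controls gave 7.63, 7.35 and 8.17. Untreated Dsup lines 1 to 4 gave 6.86, 6.57, 7.39 and 6.65, and the irradiated lines 7.28, 6.75, 6.91 and 6.88. The irradiated controls were again above the untreated controls and above all irradiated Dsup lines, but untreated Dsup line 3 exceeded the lowest irradiated control.

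For stv the untreated controls gave 7.30, 8.002, 8.004 and 7.75, with array 1 lowest. The irradiated controls gave 9.20, 9.14 and 9.14. These 3 arrays held 1 identical deposited value, 9.74, so that their SD of 0.0323 after normalization is not a measure of spread between flies. Untreated Dsup lines 1 to 4 gave 7.14, 7.34, 7.17 and 7.30, and the irradiated lines gave 8.62, 7.96, 8.05 and 7.70. Every irradiated Dsup line was above every untreated Dsup line, but the share of all probe sets with that order was not counted. Every irradiated control was above every irradiated Dsup line.

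**Figure D1:**
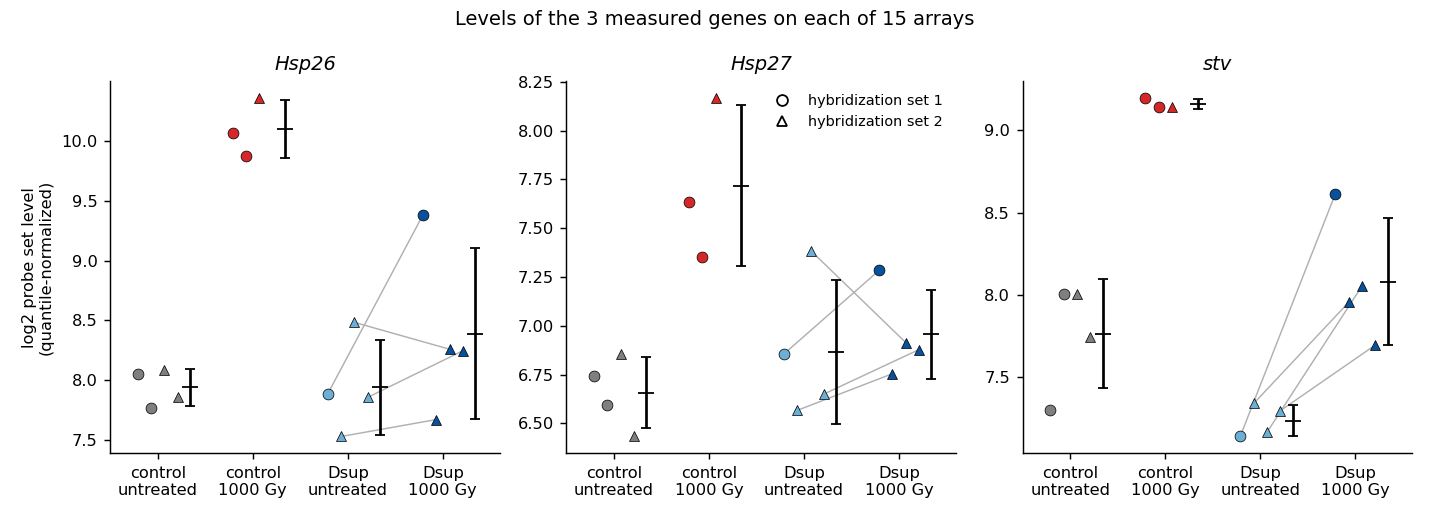
Log2 quantile-normalized level (y axis) of Hsp26, Hsp27 and stv on each of 15 arrays, in 4 groups (x axis). Bars give the mean and SD, and grey lines join the untreated and irradiated array of a Dsup line. Circles and triangles mark the 2 sets into which the arrays were cut by hybridization controls, and the y axes differ between panels. The irradiated controls lie above the irradiated Dsup lines in all 3 panels.

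Irradiated were first compared with untreated control flies, and all 3 genes rose. Hsp26 went from 7.94 ± 0.155 (SD, n = 4) to 10.1 ± 0.244 (SD, n = 3), a rise of 2.15 ± 0.30 (SE) on the log2 scale or 4.45-fold (95% interval 2.87 to 6.90, limma adjusted p = 8.78e-05). stv went from 7.76 ± 0.331 (SD, n = 4) to 9.16, a rise of 1.40 ± 0.19 (SE) or 2.63-fold (95% interval 1.997 to 3.46, limma adjusted p = 6.72e-05). Hsp27 went from 6.66 ± 0.183 (SD, n = 4) to 7.72 ± 0.414 (SD, n = 3), a rise of 1.06 ± 0.21 (SE) or 2.09-fold (95% interval 1.54 to 2.83, limma adjusted p = 0.00118). Of all probe sets, 16.9% were called higher and 17.1% lower in this comparison. The groups did not overlap, with irradiated controls higher, in 3 of 3 genes and in 23.6% of all probe sets. The rises of Hsp26, Hsp27 and stv ranked at the 99.6th, 98.0th and 98.9th percentile of all changes.

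The actin and GAPDH control probe sets, whose signal near the 3' end exceeds that near the 5' end more strongly in degraded RNA, moved with this comparison. Their mean 3' minus 5' log2 difference was 0.996 in untreated controls, 1.41 in irradiated controls, 1.13 in untreated Dsup lines and 1.33 in irradiated Dsup lines. With it as a covariate the rise in control flies was 1.84 for Hsp26 (limma adjusted p = 0.0350) and 0.98 for stv (0.0451). That of Hsp27, at 1.04, was no longer called (0.0775), while its SE went from 0.21 to 0.35. On single arrays the 3' minus 5' difference was 0.774 to 1.24 in untreated and 1.34 to 1.51 in irradiated controls. In Dsup lines it was 1.01 to 1.19 and 1.25 to 1.46. Within a genotype the covariate and radiation can thus hardly be told apart, here and in the gene lists below. With the irradiated controls reduced to 1 array, their mean, all 3 rises were still called, with limma adjusted p of 0.0127 for Hsp26 and stv and 0.0289 for Hsp27; the lone array is then assumed to vary like the other groups.

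Fat body markers rose in the same comparison, 4 of 5 of them, with a median change of 2.02. The mean level of the 5 markers ranged from 5.21 to 6.91 in untreated controls, from 7.89 to 8.25 in irradiated controls, from 7.10 to 8.85 in untreated Dsup lines and from 7.82 to 8.83 in irradiated Dsup lines. Accessory gland markers were higher in 4 of 5 (list mean 9.86 to 10.5 against 10.9 in every irradiated control) and neuronal markers lower in 3 of 5 measured (5.52 to 6.29 against 5.49 to 5.56). Limma called 1 of 5 testis markers and 3 of 8 yolk protein and chorion genes higher, and 0 of these lower. It called 0 of 5 muscle markers and 0 of 1 photoreceptor marker in either direction. Of all probe sets, 16.9% were called higher and 17.1% lower. The part of these markers in the heat shock gene values was not tested.

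In the Dsup lines, stv alone of the 3 genes was called after radiation. It went from 7.24 ± 0.0966 to 8.08 ± 0.387 (SD, n = 4 each), a rise of 0.84 ± 0.17 (SE) or 1.79-fold (95% interval 1.39 to 2.32, limma adjusted p = 0.00342). The level of stv was higher in 4 of 4 lines, and the share of all probe sets with that order was not counted. Of all probe sets, 10.7% were called higher and 10.6% lower. Hsp26 differed by 0.45 ± 0.28 (SE), with a 95% interval from -0.14 to 1.04 (limma adjusted p = 0.263), and Hsp27 by 0.09 ± 0.19 (SE), with an interval from -0.31 to 0.50 (limma adjusted p = 0.766). As deposited, with a median change over all probe sets of 0.47, these differences were 0.99 and 0.59 and both were called.

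The values of the 4 lines were unlike one another. Each line had 1 array per treatment, so a difference between lines and one between single arrays cannot be told apart. Line 1 was also the only Dsup line in the first hybridization set described below. In line 1 the irradiated minus the untreated level was 1.49 for Hsp26, 0.43 for Hsp27 and 1.47 for stv, the highest of the 4 lines for each gene. Line 2 gave 0.14, 0.19 and 0.61, and line 4 gave 0.39, 0.23 and 0.40, in the same order. Line 3 gave -0.22 for Hsp26 and -0.47 for Hsp27, both lower after radiation, but 0.89 for stv. Line 3 had the highest untreated level of Hsp26 and of Hsp27 among the Dsup lines. With both arrays of line 1 left out, the Dsup response was 0.10 for Hsp26, -0.02 for Hsp27 and 0.63 for stv (limma adjusted p = 0.0173).

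Before radiation none of the 3 genes was called between Dsup lines and controls, where 5.42% of all probe sets were called higher and 5.25% lower. Fat body markers were higher in the Dsup lines in 2 of 5, and their part here was not tested. Hsp26 had a mean of 7.94 in both groups, and the 95% interval of the difference ran from -0.59 to 0.59. Hsp27 differed by 0.21 ± 0.19 (SE, limma adjusted p = 0.524). stv differed by -0.53 ± 0.17 (SE, limma adjusted p = 0.0634). It was lower than controls 2 to 4 in every Dsup line, but Dsup line 2 (7.34) was above control 1 (7.30). The share of all probe sets with that order was not counted. Of 8 fits that left out 1 array of either group, only that without untreated control 1 called the difference (-0.68, limma adjusted p = 0.0180). Over the 8 fits it ran from -0.68 to -0.45, with limma adjusted p up to 0.157. The difference was called with the 3' minus 5' covariate (-0.65, limma adjusted p = 0.0359) and as deposited (-1.18, limma adjusted p = 2.79e-05). It was not called with probe sets of low level left out (limma adjusted p = 0.110).

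After 1000 Gy all 3 genes were lower in the Dsup lines than in the controls. The difference was -1.70 ± 0.30 (SE) for Hsp26, a 3.26-fold lower level (limma adjusted p = 0.00215). For stv it was -1.08 ± 0.19 (SE), 2.11-fold lower (limma adjusted p = 0.00204), and for Hsp27 -0.76 ± 0.21 (SE), 1.69-fold lower (limma adjusted p = 0.0258). Of all probe sets, 6.06% were called lower and 5.97% higher. The 2 groups did not overlap, with Dsup lines lower, in 3 of 3 genes and in 17.8% of all probe sets. With the irradiated controls reduced to 1 array, none of the 3 differences was called, with limma adjusted p from 0.162 to 0.292. The call for Hsp27 was also lost in 5 of the 7 fits that left out 1 array of either group, with values from -0.94 to -0.54 over the 7. It was kept without irradiated control 2 and without irradiated Dsup line 1.

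**Figure D2:**
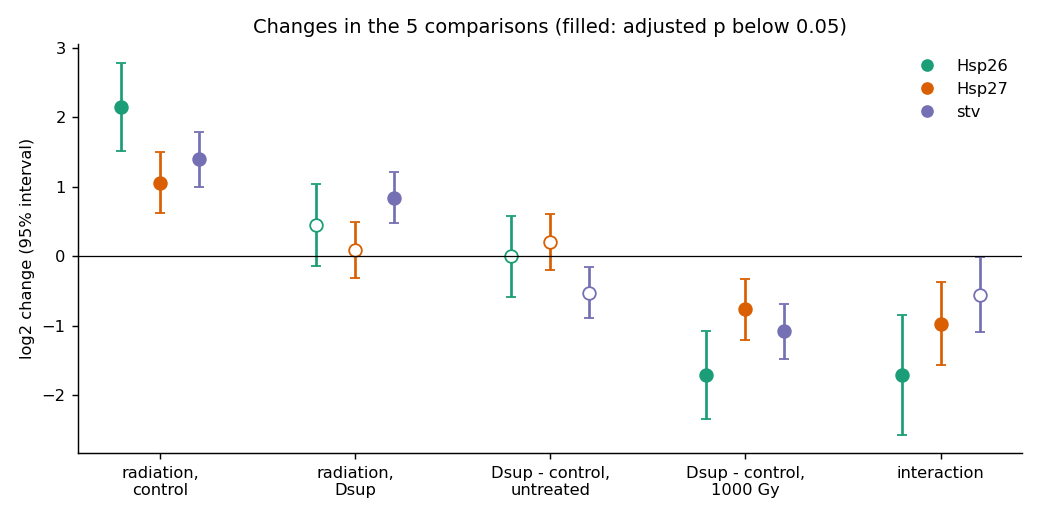
Log2 change with its 95% interval (y axis) of Hsp26, Hsp27 and stv in the 5 comparisons (x axis), with filled points where the limma adjusted p is below 0.05. All 3 genes are above 0 for radiation in control flies and below 0 for Dsup minus control after 1000 Gy, and only stv is filled for radiation in Dsup lines.

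The interaction tests whether the radiation response differed between the genotypes, as the response of Dsup lines minus that of controls. It was called for Hsp26 at -1.70 ± 0.41 (SE, limma adjusted p = 0.0177) and for Hsp27 at -0.97 ± 0.28 (SE, limma adjusted p = 0.0434). It was not called for stv at -0.55 ± 0.25 (SE, limma adjusted p = 0.198), whose 95% interval ran from -1.09 to -0.01. Of all probe sets, 4.77% were called lower and 4.31% higher.

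These calls depended on few arrays and on the processing. With irradiated controls as 1 array, the limma adjusted p was 0.190 for Hsp26 and 0.211 for Hsp27, with probe sets below the 40th percentile left out 0.0588 and 0.0999, and with the 3' minus 5' covariate 0.0671 and 0.106. The Hsp26 interaction ranged from -2.03 to -1.47 when each of 15 arrays was left out, and lost its call without irradiated control 3 (limma adjusted p = 0.0549). The Hsp27 interaction ranged from -1.15 to -0.74 and lost its call in 10 of 15. It was called only without untreated control 3, irradiated control 2, untreated Dsup line 2 or 4, or irradiated Dsup line 1. The replicate number was also taken as a block, which pairs the 2 arrays of each Dsup line. It also joins control arrays that share only a number in the labels. This block gave -0.89 for Hsp27 (limma adjusted p = 0.0557) and -1.68 for Hsp26 (limma adjusted p = 0.0306). Without both arrays of line 1 the interaction of stv was called at -0.76 (limma adjusted p = 0.0443).

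The hybridization controls are RNAs added to each sample before hybridization. By their levels the arrays were cut into 2 sets, a number that was imposed and not found from the data. Both sets hold all 4 groups. The first set held untreated and irradiated controls 1 and 2 and both arrays of Dsup line 1, and the second all other arrays. Within the first and the second set, the rise in control flies was 2.06 and 2.38 for Hsp26, 0.82 and 1.52 for Hsp27, and 1.51 and 1.27 for stv, called each time; the second set holds 1 irradiated control, which is assumed to vary like the other groups. The interaction was -0.57 and -2.28 for Hsp26, -0.39 and -1.54 for Hsp27, and -0.04 and -0.63 for stv, called in neither set. The first set holds 1 Dsup line, with 1 array per treatment, so set and line cannot be told apart there. With the set as a block over all arrays, the interaction was -1.67 for Hsp26 (limma adjusted p = 0.0211) and -0.97 for Hsp27 (limma adjusted p = 0.0498).

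**Figure D3:**
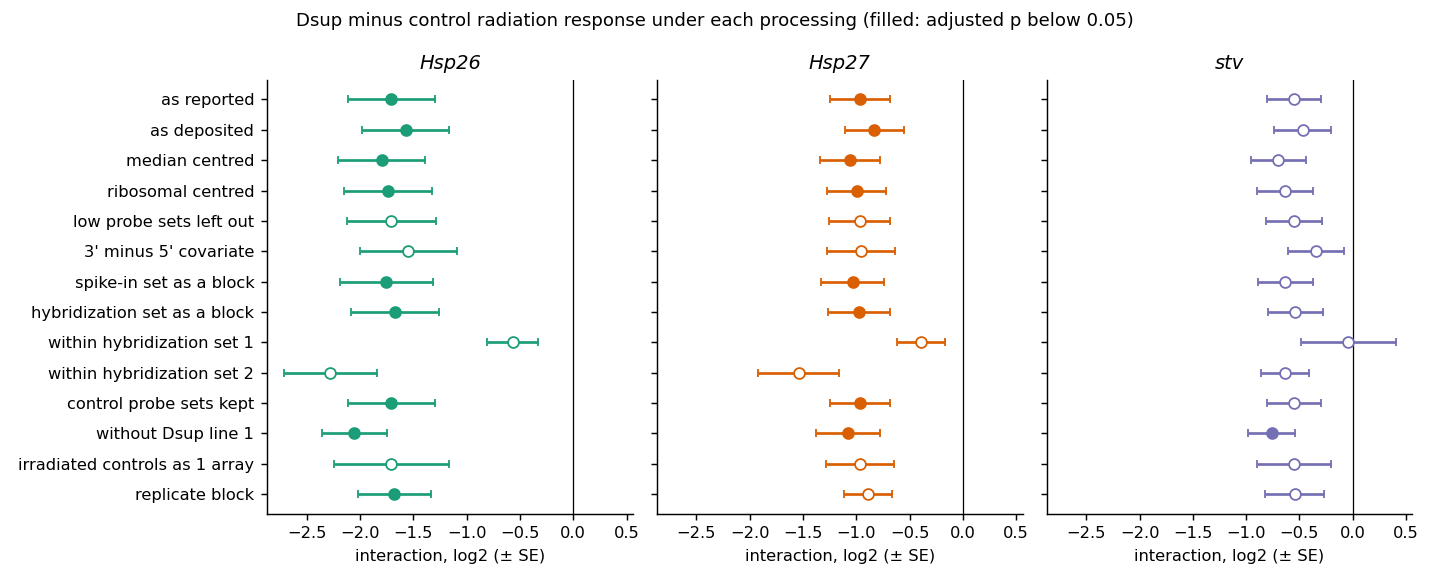
Interaction on the log2 scale with its SE (x axis) for Hsp26, Hsp27 and stv under each way of processing the data (y axis), with filled points where the limma adjusted p is below 0.05. All values lie below 0; for Hsp26 they run from -2.28 within the second hybridization set to -0.57 within the first.

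Hsp26 and Hsp27 moved together from array to array more closely than either did with stv. Over the 15 arrays, Pearson's r of the levels was 0.920 for Hsp26 with Hsp27, 0.865 for Hsp26 with stv and 0.702 for Hsp27 with stv. Once group means were taken out, it was 0.794, 0.405 and 0.162 in that order. These are descriptions over arrays that share their groups and their normalization. For stv the 3 irradiated controls held 1 identical deposited value, with an SD of 0.0323 after normalization, against 0.244 for Hsp26 and 0.414 for Hsp27. The deviations of stv on those arrays are thus not a measure of its spread, which limits both comparisons with stv.

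Among 9352 genes with a level at or above the 40th percentile, the gene most like Hsp26 over the 15 arrays was Hsp68, an inducible Hsp70 family member (r = 0.986), followed by CG5290 (0.961) and rdog (0.957). Those most like Hsp27 were Hsp68 (0.927), Hsp26 (0.920) and Sf3a2, a splicing factor subunit (0.912). Those most like stv were Ubi-p63E, a polyubiquitin gene (0.960), bocks, a LEM domain protein of the nuclear envelope (0.952), and CG31955 (0.951). Hsp68 rose by 2.18 ± 0.35 (SE) in irradiated controls (limma adjusted p = 0.000293) and differed by 0.42 ± 0.32 (SE) in Dsup lines (limma adjusted p = 0.379). Ubi-p63E was called higher in both, by 0.57 in controls and 0.40 in Dsup lines.

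Hsp26 and Hsp27 lie 3 genes apart on chromosome arm 3L in the small heat shock cluster, with Hsp67Ba and Hsp23 between them, and stv lies elsewhere on the same arm. Of the 20 nearest genes of Hsp26, 14 had a probe set of their own, Hsp27 among them. In irradiated controls 3 of these were called higher and 2 lower, against 16.9% and 17.1% of all probe sets. The median change of the 14 was 0.00. CG4461, the adjacent small heat shock gene, differed by 0.17 (limma adjusted p = 0.281), and Fdx1, a ferredoxin gene 5 positions away, rose by 0.75. Around stv, 18 of 20 neighbours were measured. Of these, 6 were called higher and 4 lower in irradiated controls, against the same shares of all probe sets. CG10089 and Abp1, on either side, differed by 0.09 (not called) and 0.40 (called).

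Hsp22, the small heat shock protein of the mitochondrial matrix, shares its probe sets with CG4456 in the annotation, so neither value can be given to one gene. One shared probe set, 1629061_s_at, had means of 5.45 in untreated and 10.1 in irradiated controls, a difference of 4.63 ± 0.87 (SE, limma adjusted p = 0.000914). In Dsup lines it had means of 6.34 and 7.65 (limma adjusted p = 0.264). The other, 1630487_s_at, differed by 0.21 in controls (limma adjusted p = 0.0755) and by 0.34 in Dsup lines (limma adjusted p = 0.00755), so the 2 probe sets disagree.

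**Figure D4:**
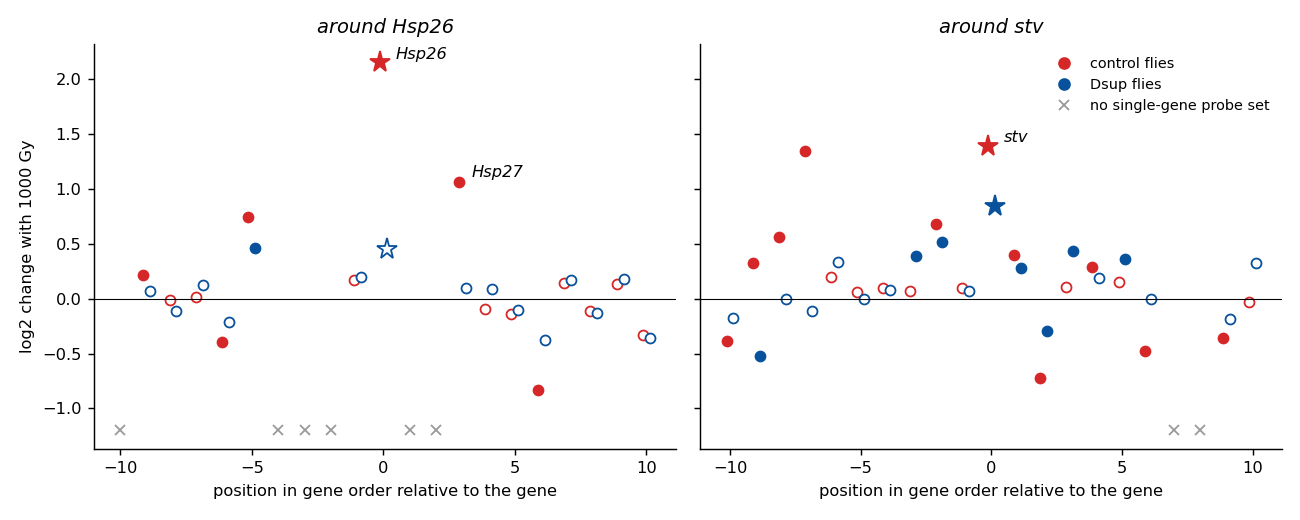
Log2 change with 1000 Gy (y axis) of the measured genes among the 10 on either side of Hsp26 and of stv, by position in the gene order of the RefSeq annotation (x axis), in control flies (red) and Dsup lines (blue), filled where the limma adjusted p is below 0.05. Stars mark Hsp26 and stv, and crosses at the lower edge mark genes with no probe set of a single symbol; in control flies Hsp26 and Hsp27 stand above the other genes measured around Hsp26.

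The other chaperone and proteostasis genes were read from 5 lists with 57 measured genes in all. In irradiated controls 25 of 57 (43.9%) were called higher and 7 (12.3%) lower, with a median of 0.24 against -0.01 to 0.02 for all probe sets over the 5 comparisons. Of all probe sets 16.9% and 17.1% were, and these shares also stand beside the called counts of each list below. Shares of all probe sets at an unadjusted p below 0.05 were not counted. The list counts at that threshold, here and below, thus have no background beside them. In Dsup lines 7 (12.3%) were called higher, against 10.7% of all probe sets, and 2 (3.51%) lower, against 10.6%. In untreated flies limma called 0 between genotypes, against 5.42% of all probe sets higher and 5.25% lower. At an unadjusted limma p below 0.05, 4 were higher and 1 lower in Dsup lines. After 1000 Gy, 11 (19.3%) were lower and 2 (3.51%) higher in Dsup lines than in controls, against 6.06% and 5.97% of all probe sets. The interaction was called negative in 7 (12.3%) and positive in 1 (1.75%), against 4.77% and 4.31%. Genes of these lists that are said to rise or fall were called on the quantile-normalized values. Identical values in the irradiated controls lower the spread behind the calls in that group. Among the named genes of the lists, many calls in controls were lost with the irradiated controls reduced to 1 array.

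Of 10 other small heat shock genes and their cluster neighbours, 4 were measured. In irradiated controls limma called 0 of them higher and 1 lower, and at an unadjusted p below 0.05 there was 1 in each direction. The one called was CG13133 at -0.39, and it was also called lower in Dsup lines at -0.42 (limma adjusted p = 0.0186). Neither change was called as deposited or with the covariate. For l(2)efl, an alpha-crystallin related small heat shock protein, the 3 probe sets disagreed. The brightest differed by 0.35 (limma adjusted p = 0.110), while the others gave 0.87 (limma adjusted p = 0.00485) and 0.21 (limma adjusted p = 0.447).

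Of the Hsp70, Hsp110 and J-domain genes, 7 of 16 measured were called higher and 1 lower in irradiated controls. Hsp110, a nucleotide exchange factor of Hsp70, rose by 1.04, Hsc70-3, the Hsp70 of the endoplasmic reticulum, by 0.79, and Hsc70-4, the abundant constitutive Hsp70 that starvin binds as a BAG protein, by 0.49. DnaJ-1, the fly Hsp40 that works with inducible Hsp70, rose by 0.78 in controls (limma adjusted p = 0.0151) and by 0.69 in Dsup lines (limma adjusted p = 0.0296). Tpr2, a J-domain protein, fell by 0.52 in controls (-0.11 as deposited, not called), and DnaJ-H rose in Dsup lines by 0.25. With the 3' minus 5' covariate, the rise in controls was no longer called for Hsp68 (1.68, limma adjusted p = 0.0800), Hsp110 (0.96, 0.111), Hsc70-3 (0.63, 0.286), Hsc70-4 (0.18, 0.616) and DnaJ-1 (0.49, 0.434), nor were the rises of DnaJ-1 (0.55, 0.182) and DnaJ-H (0.25, 0.143) in Dsup lines.

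Of 13 Hsp90 paralogs and cochaperones, 8 were called higher and 0 lower by limma in irradiated controls, and 9 and 1 at an unadjusted p below 0.05. unc-45, a chaperone of myosin, rose by 1.49 in controls (limma adjusted p = 3.29e-06) and by 0.63 in Dsup lines (limma adjusted p = 0.00281). Stip1, which links Hsp70 to Hsp90, rose by 1.09 in controls and differed by 0.22 in Dsup lines (limma adjusted p = 0.513). CG1416 rose by 0.71 in controls. shu, a cochaperone of the piRNA pathway, rose by 0.55 in controls and fell by 0.40 in Dsup lines (0.029 as deposited), with an interaction of -0.95 (limma adjusted p = 0.00231). Its group means, 2.13 to 2.77, were near those of the yolk protein gene Yp2, 2.07 to 2.38, and its probe set is not shown to be above background. With the covariate the calls in controls were lost for Stip1 (0.84, limma adjusted p = 0.205), CG1416 (0.48, 0.311) and shu (0.26, 0.360).

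Of 13 chaperonins 9 were called higher and 1 lower in irradiated controls, with a median of 0.87. They included subunits of the cytosolic chaperonin that folds actin and tubulin: CCT5 rose by 1.53, CCT3 by 1.46 and CCT2 by 1.29. In Dsup lines CCT2 rose by 0.88, CCT3 by 0.67 and CCT5 by 0.66, the 3 called there. Hsp60C, a relative of the mitochondrial chaperonin, fell by 0.46 in controls (0.043 as deposited). With the covariate the calls of Hsp60C in controls (-0.47, limma adjusted p = 0.178) and of CCT3 (0.56, 0.105) and CCT5 (0.54, 0.102) in Dsup lines were lost.

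Of 11 genes of heat shock factor and selective autophagy, 1 was called higher and 4 lower in irradiated controls. ref(2)P, the p62 adaptor that carries ubiquitinated cargo to autophagosomes, rose by 1.26 in controls and 0.67 in Dsup lines. Atg18a, a phosphoinositide-binding autophagy protein, fell by 0.95, Atg1, the kinase that starts autophagy, by 0.90, and cher, the filamin that starvin acts on in muscle, by 0.54 in controls. As deposited, Atg1 (-0.58, limma adjusted p = 0.0676) and cher (-0.19, 0.0833) were not called, and with the covariate Atg18a (-1.07, 0.0511), Atg1 (-1.25, 0.0635) and cher (-0.44, 0.0670) were not. The transcript of Hsf itself differed by -0.17 ± 0.08 (SE, limma adjusted p = 0.122) in controls and by 0.01 in Dsup lines.

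**Figure D5:**
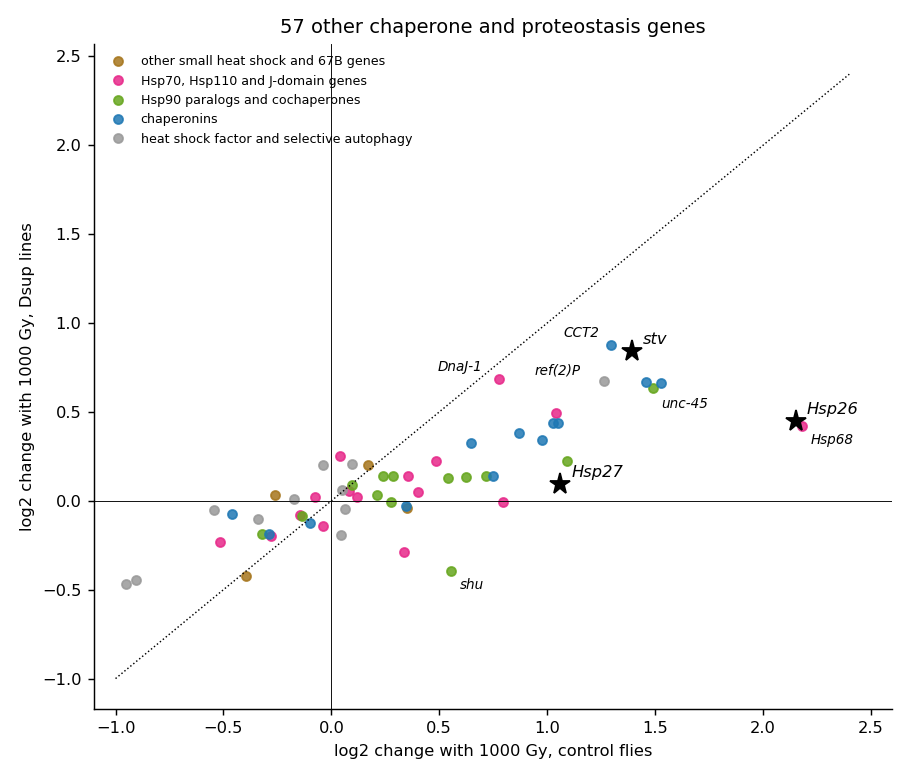
Log2 change with 1000 Gy in Dsup lines (y axis) against that in control flies (x axis) for 57 listed chaperone and proteostasis genes, coloured by list, with Hsp26, Hsp27 and stv as stars and equal change as the dotted line. Hsp26 (2.15 and 0.45) lies beside Hsp68 (2.18 and 0.42), and stv (1.40 and 0.84) near CCT2 (1.29 and 0.88).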

How the data were processed

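The authors deposited log2 probe set levels for 18952 probe sets on 15 arrays, per the file headers and value range; their background correction, summary and normalization were not given in the sources used here. Per the labels' protocols, cRNA was made from 250 ng of total RNA. After 183 Affymetrix controls were dropped, 18769 probe sets remained. Of these, 13647 carried 1 gene symbol in the array annotation, 402 several and 4720 none, and a gene was read from its probe set with the highest mean. Because array means differed between groups, the log2 values were quantile-normalized with limma 3.58.1 in R 4.3.3. Neither intensities nor detection calls were at hand, and the number of arrays limits the precision.

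A limma model with a mean per group was fitted to all arrays with plain empirical Bayes moderation, 5 two-sided contrasts and Benjamini-Hochberg adjustment. The p-values measure spread between these pools and lines; identical values in irradiated controls lower it. The members and lists were chosen with earlier results of these data known. Genes named from a list are the 3 largest called rises and falls per genotype and a few chosen regulators. The code was tested on simulated data.

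Arrays of a Dsup line share a number in the labels, which pairs them. The labels do not say that control arrays of the same number belong together. Untreated and irradiated controls of the same number, 1 to 3, did fall in the same hybridization set. Deviations from group means correlated at -0.01, 0.11, -0.10 and -0.18 in Dsup lines 1 to 4 and at -0.14, 0.25 and -0.16 in controls 1 to 3. Gene order came from the RefSeq table, and no coordinates are printed, since the sources used here name no build for the array.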

Additional observations from a re-analysis of the deposited data

Results flagged for a closer look

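The radiation response differed between genotypes, by the interaction in limma, for Hsp26 at -1.70 (adjusted p = 0.0177) and Hsp27 at -0.97 (adjusted p = 0.0434). The same test passed for 5 named genes of the chaperone lists. It gave -1.76 for Hsp68 (adjusted p = 0.0325), -0.85 for unc-45 (adjusted p = 0.0106), -0.95 for shu (adjusted p = 0.00231), -0.86 for CCT5 (adjusted p = 0.0403) and 0.49 for cher (adjusted p = 0.0185). With the 3' minus 5' covariate, the adjusted p was 0.0671 for Hsp26, 0.106 for Hsp27, 0.118 for Hsp68, 0.141 for CCT5 and 0.0709 for cher. With low probe sets left out it was 0.0588, 0.0999, 0.0848, 0.0964 and 0.0588 in that order, and shu drops out. With irradiated controls as 1 array, none of the 7 was called, with adjusted p from 0.0731 (shu) to 0.297 (CCT5).

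In 3 of 75 groups of 4 arrays examined, over 25 genes, 1 array stood far from the others; chance alone gives about 1 in 20 such groups. Tpr2 was at 7.96 in untreated control 1, with the nearest array at 8.18. DnaJ-1 was at 9.62 in untreated control 3, with the nearest at 8.50. CCT3 was at 7.77 in irradiated Dsup line 1, with the nearest at 7.17.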

How the results depend on the processing

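Of 324 recomputed values of the 3 genes, 264 kept their direction and their side of the threshold, 37 lost the call, 8 gained it and 1 turned and was called. In 14 more the sign changed between values that were called in neither, all of the untreated difference of Hsp26 or the Dsup response of Hsp27, with values from -0.02 to 0.14. The cause of these changes was not tested. As deposited, the Dsup response was 0.99 for Hsp26 and 0.59 for Hsp27, and the untreated difference was -0.65 for Hsp26, -0.46 for Hsp27 (which turned from 0.21) and -1.18 for stv, all called. The median over all probe sets as deposited was 0.47 for the Dsup response and -0.61 for the untreated difference. Also as deposited, the Dsup response turned for Hsc70-3 (0.56), Tpr2 (0.31), shu (0.029), Hsp60C (0.52), cher (0.48) and l(2)efl (0.56), and the control response of Hsp60C turned to 0.043. With probe sets below the 40th percentile left out, the call was lost for the interaction of Hsp26 (-1.70, adjusted p = 0.0588) and Hsp27 (-0.97, 0.0999) and for Hsp27 after 1000 Gy (-0.76, 0.0562). The 3' minus 5' covariate ended the call for the control response of Hsp27 (1.04) and the interaction of Hsp26 (-1.55) and Hsp27 (-0.96), and made one for stv in untreated flies (-0.65).

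Within the first hybridization set, the calls lost were the Dsup response of stv (1.47), the difference after 1000 Gy of Hsp26 (-0.59), Hsp27 (-0.21) and stv (-0.55), and the interaction of Hsp26 (-0.57) and Hsp27 (-0.39). Within the second they were the interaction of Hsp26 (-2.28) and Hsp27 (-1.54) and Hsp27 after 1000 Gy (-1.32). Fewer arrays were fitted there. The planned split by all spike-in probe sets set only untreated control 3 apart. With irradiated controls as 1 array, calls were lost after 1000 Gy for Hsp26 (-1.70), Hsp27 (-0.76) and stv (-1.08) and for the interaction of Hsp26 (-1.70) and Hsp27 (-0.97). Without Dsup line 1 the interaction of stv was called (-0.76). These 3 alternatives, and keeping the control probe sets in the normalization, were chosen after seeing the data.

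The replicate block gave an interaction of -0.89 for Hsp27 and changed no other call of the 3 genes; genotype differences could not be fitted with it, and it called 955 probe sets for the interaction against 1704. With single arrays left out, the ranges of the results that changed were -2.03 to -1.47 (Hsp26 interaction), -1.15 to -0.74 (Hsp27 interaction), -0.94 to -0.54 (Hsp27 after 1000 Gy), -0.68 to -0.45 (stv untreated, called without untreated control 1) and -0.73 to -0.40 (stv interaction, called without irradiated Dsup line 1). Each of the 3 genes was read from its only probe set with 1 symbol, and probe sets shared with another gene were not looked for.

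Probe sets called for control response, Dsup response, untreated difference, difference after 1000 Gy and interaction numbered 6384, 3999, 2003, 2258 and 1704. As deposited they were 9297, 14489, 16742, 11606 and 4298, without low probe sets 4055, 1920, 326, 477 and 137, within the first set 3297, 31, 0, 0 and 0 (limma; 4012, 2861 and 3549 at an unadjusted p below 0.05 for the last 3), and within the second 1308, 1666, 31, 89 and 36. With irradiated controls as 1 array they were 1661, 3002, 1139, 48 and 70, and with the covariate 1686, 2006, 1515, 1873 and 956. Median centring gave 3171 in untreated flies and 4232 after 1000 Gy, where ribosomal centring gave 4493.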
